A study of Mus musculus with 6 samples.

Results

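The 10 imprinted genes of muscle growth examined here were H19, Igf2, Cdkn1c, Kcnq1ot1, Dlk1, Meg3, Rian, Mirg, Peg3 and Grb10, at 5 loci on mouse chromosomes 7, 11 and 12. They were chosen by name, and a peak was counted for a gene when it overlapped the RefSeq span of that gene or 20 kb either side, here called its window. All 10 were found among the 49943 genes of the table on assembled chromosomes. Their windows covered 744 kb together and held 61 of the 157214 peaks of replicate 1, 67 of the 179630 peaks of replicate 2 and 38 of the 97115 shared regions on assembled chromosomes. A shared region is the union of peaks of both lists that overlap by at least 1 bp, and a peak with such an overlap is called partnered.

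Imprinted genes are expressed mainly from the maternal or the paternal chromosome, and DNA methylation inherited through egg or sperm at imprinting control regions sets which copy is active. Many of them act on growth: as background, the paternally expressed Igf2 and Dlk1 promote it, while the maternally expressed H19, Cdkn1c and Grb10 restrain it. H19 and Igf2 are highly active in fetal and regenerating muscle, and LncMyoD is known as an RNA made from a gene upstream of Myod1 and induced by MyoD during muscle differentiation.

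The data came from ChIRP-seq, in which biotin-labelled DNA probes pull down an RNA together with the chromatin it touches, here the long non-coding RNA LncMyoD in C57BL/6 differentiated myotubes, which the labels give as primary myoblasts kept for 2 days in DMEM with 2% HS. The 6 samples were pull-downs with odd probes, pull-downs with even probes and input DNA, with 2 replicates of each kind. All 3 kinds carry the same strain and cell type labels, and no treatment, age or genetic change is named. The deposited results were 1 peak list per replicate in mm10 coordinates, and the description that all samples of a replicate share is what ties them to a list, so odd probes, even probes and input were not compared with each other. Nothing states that the replicates came from different cultures. The files hold no RNA levels against which myotube identity or the parental allele could be checked.

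The folds given below are the authors' fold enrichments at each peak's summit, and ranks order the peaks within a list by −log10 q from the strongest down. They describe peaks within a list, with no SD. A place orders all 97115 shared regions by the mean percentile of −log10 q of their best peak in each list, place 1 being the strongest. With 1 condition there were no groups to test, and the main counts are set beside the same count over all genes, promoters or hairpins. For some alternative settings in the closing section, the count over all genes was not computed.

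Promoter sequences are shown for the pair of members whose promoter lay under a peak, since they are the promoter DNA that was recovered. RefSeq (build GRCm38.p6) gave 13 promoters of 300 bases for 8 of the members, and H19 and Cdkn1c had no entry. Only 1 of the 13, the outermost of 4 Igf2 promoters, overlapped a shared region, against 9.04% of 32851 promoters in the table. The Peg3 promoter overlapped a peak of replicate 2 alone, so that 2 of 13 did so in that list, against 11.5% of all promoters. The 250 bases before each start are given 5′ to 3′ on the minus strand, for Igf2 from chr7:142666817-142667066 and for Peg3 from chr7:6730420-6730669, with E-boxes (CANNTG, the motif of MyoD and other bHLH factors) in capitals.
Igf2: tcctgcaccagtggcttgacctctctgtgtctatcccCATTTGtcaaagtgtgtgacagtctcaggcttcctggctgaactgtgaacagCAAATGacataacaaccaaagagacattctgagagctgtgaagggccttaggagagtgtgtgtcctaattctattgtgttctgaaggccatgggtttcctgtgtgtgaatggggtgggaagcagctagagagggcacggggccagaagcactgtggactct
Peg3: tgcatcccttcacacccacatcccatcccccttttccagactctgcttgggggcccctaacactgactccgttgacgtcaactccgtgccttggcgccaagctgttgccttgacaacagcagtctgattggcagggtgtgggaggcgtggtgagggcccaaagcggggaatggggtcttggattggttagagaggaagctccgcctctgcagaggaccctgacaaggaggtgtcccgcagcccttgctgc

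The Igf2 sequence held 2 E-boxes and the Peg3 sequence none. Neither held the E-boxes preferred by MyoD (CAGCTG or CAGGTG), the ZFP57 hexamer TGCCGC, the YY1 core GCCATNTT or the CTCF core. All motifs were searched on both strands, and CAGCTG and CAGGTG are also counted as CANNTG. Over whole 300-base promoters, 7 of the 13 member promoters held CANNTG, against 72.3% of all promoters. For CAGCTG the count was 0 of 13, against 16.3%, and for CAGGTG 0 of 13, against 20.2%. TGCCGC, the sequence at which ZFP57 protects imprinted methylation, lay in 3 of 13, against 11.6% of all promoters, 1 each at Igf2, Grb10 and Meg3. None of these 3 promoters overlapped a peak of either list, and the one at Igf2 is not the printed promoter. No member promoter held GCCATNTT (6.05% of all promoters) or the CTCF core (0.0365%). The Igf2 sequence held 1 CpG and the Peg3 sequence 8.

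The Dlk1-Meg3 locus carries a large cluster of microRNA genes, and the mature sequences of the 5 hairpins that lay under shared regions are printed here with the seed (bases 2 to 8) in capitals, to show which microRNA genes were in the recovered DNA. All 5 lay in the window of Mirg, the host RNA of the distal part of the cluster. The shared region from 109742281 to 109743655 on chromosome 12, inside Mirg, covered Mir541, Mir409, Mir412 and Mir369, and the region from 109723615 to 109724170 covered Mir376a.
miR-376a-5p: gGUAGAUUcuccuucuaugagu
miR-376a-3p: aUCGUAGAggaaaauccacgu
miR-541-5p: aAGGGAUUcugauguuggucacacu
miR-541-3p: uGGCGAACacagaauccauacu
miR-409-5p: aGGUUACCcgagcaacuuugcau
miR-409-3p: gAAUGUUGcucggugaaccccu
miR-412-5p: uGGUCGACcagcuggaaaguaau
miR-412-3p: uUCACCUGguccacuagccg
miR-369-5p: aGAUCGACcguguuauauucgc
miR-369-3p: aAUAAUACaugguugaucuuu

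No pair of these 10 mature sequences shared a seed. Of 49 hairpins in the members' windows, 5 overlapped a shared region, against 6.27% of the 1005 hairpins in the table. In replicate 1, 5 hairpins overlapped a peak (6.07% of all hairpins did), and in replicate 2 there were 4 (7.66% of all). The exception was Mir409, which lay in the shared region through its peak of replicate 1 and 43 bp from the nearest peak of replicate 2. None of the 11 hairpins in the window of Meg3 or of the 16 in that of Rian overlapped a peak of either list. Mir675, which is processed from H19, lay 1001 bp from the nearest peak of replicate 1 and 3520 bp from that of replicate 2. For Mir483, in Igf2, these distances were 4688 and 2828 bp. The hairpins concern DNA only, and no microRNA level was measured.

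Every member had a shared peak in its window, but so did most genes: 10 of 10 members, against 89.5% of 21887 protein-coding genes and 87.2% of 12727 lncRNA genes treated the same way. Within the gene span itself, 7 of 10 members overlapped a shared region, against 56.4% of protein-coding genes. The 3 without one were H19, Cdkn1c and Dlk1, which are the 3 shortest members at 2617, 2721 and 10852 bp. The median member window held 3.5 shared regions and that of a protein-coding gene 3.

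**Figure D1:**
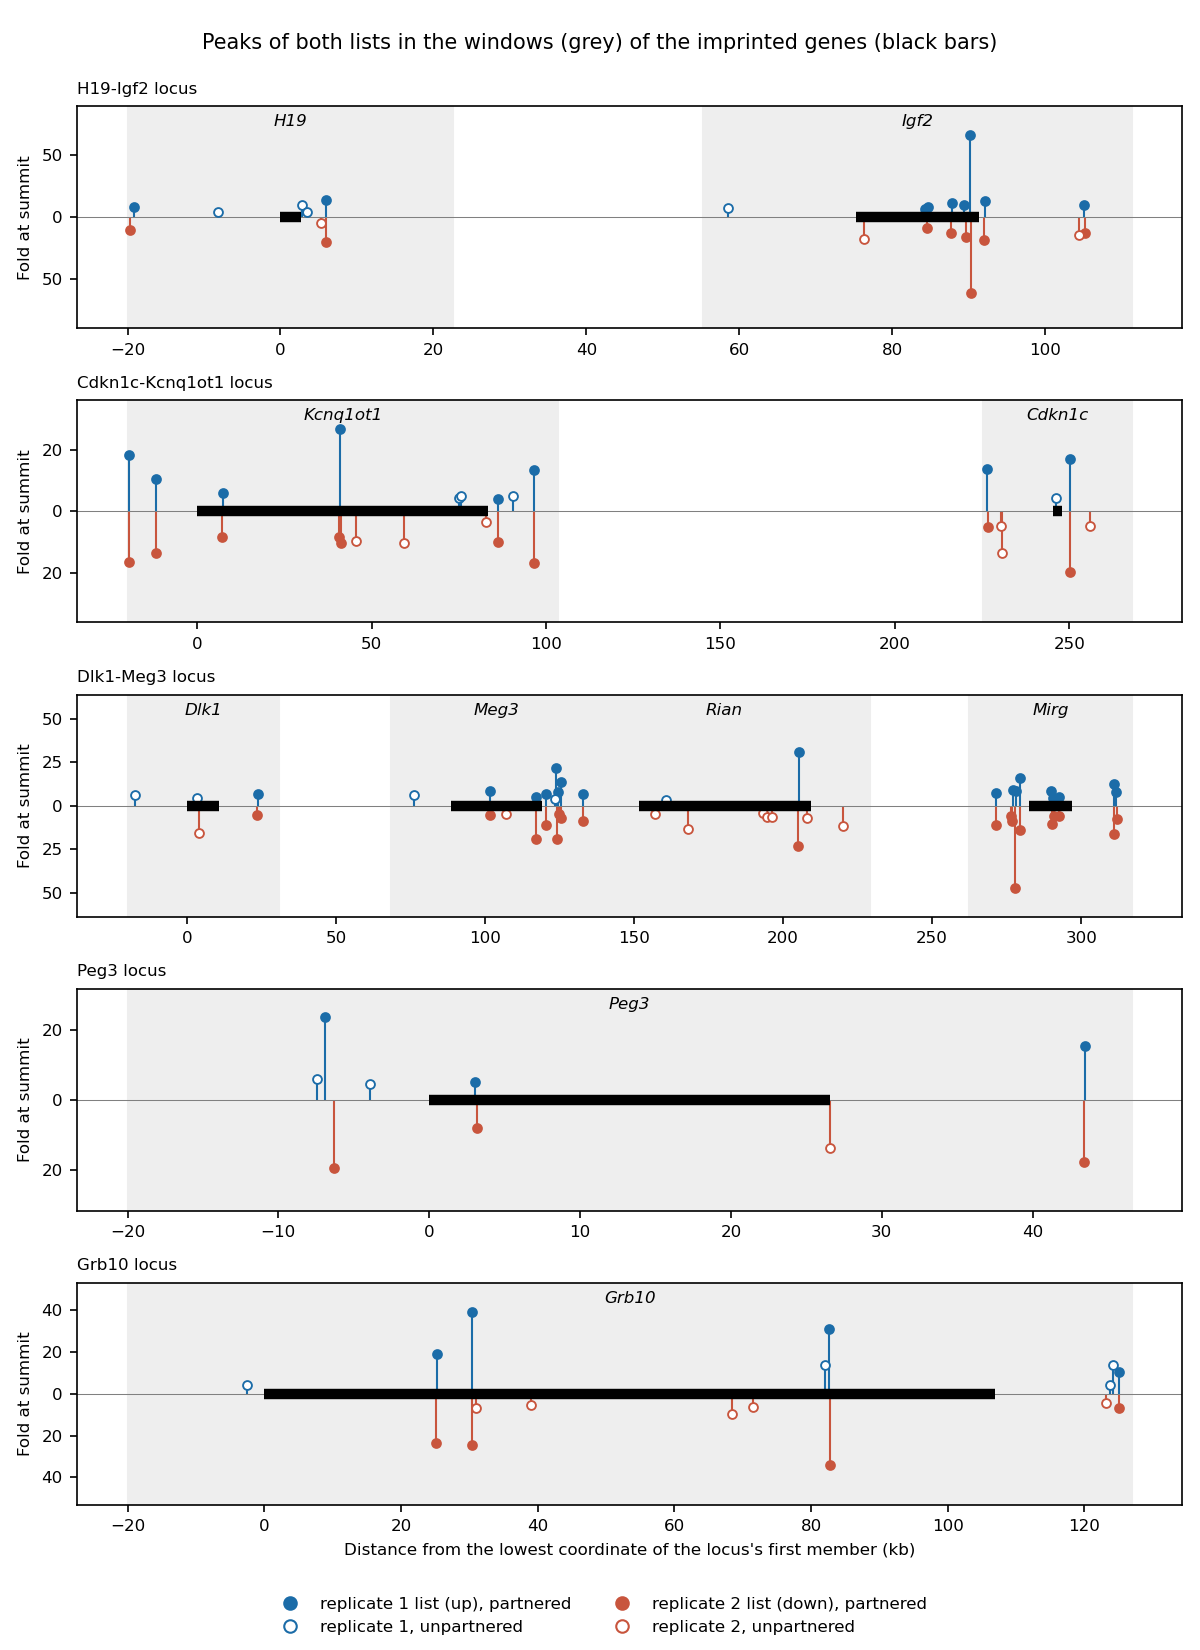
Peaks within the members' windows at the 5 loci, placed by the distance of their summit from the lowest coordinate of the first member (x axis, kb), with fold at the summit on the y axis (replicate 1 upward, replicate 2 downward; each panel has its own scale). Grey marks the windows, black bars the genes, filled points partnered peaks and open points unpartnered ones; peaks between windows are not drawn. The highest points are the peaks of 66.3-fold and 60.8-fold near the right end of Igf2.

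Igf2, which encodes the fetal insulin-like growth factor 2, held the strongest signal of all members. Its window had 8 peaks in each list and 5 shared regions. The region over its higher-coordinate end, which holds the outermost of its annotated starts, ran from 142665444 to 142668165 on chromosome 7. It was 2722 bp wide. Its best peak had a fold of 66.3 in replicate 1 (rank 1109 of the list) and of 60.8 in replicate 2 (rank 1605). These ranks are percentiles of 99.3 and 99.1 within the lists. The region took place 982, and a region placed as high or higher lay within 20 kb of 4.06% of protein-coding genes.

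That region joined a pair of peaks in each list. The summits of the strong pair lay inside Igf2, 1103 and 1044 bp from the outermost start and 59 bp from each other. The peaks that covered the printed promoter were lower, at 13.2-fold in replicate 1 and 18.5-fold in replicate 2. Igf2os, an antisense RNA gene, overlapped the same DNA, and the lists carry no strand, so the genes cannot be told apart here. The promoters at the other annotated starts of Igf2 overlapped no peak of either list.

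Further shared regions lay inside Igf2. The one from 142664630 to 142665323 had folds of 10.3 and 16.1, that from 142662569 to 142664034 had 11.4 and 12.97, and that from 142659684 to 142660301 had 8.45 and 8.71. Their places were 43079, 44802 and 60771, near the middle of all regions. Beyond the gene, near the insulin gene Ins2, a shared region (142680465 to 142680944) reached 9.55-fold and 12.4-fold. In replicate 2 alone there was a peak of 17.9-fold near the lower end of Igf2 (142651679 to 142652096), 7588 bp from the nearest peak of replicate 1.

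H19, the maternally expressed RNA that shares enhancers with Igf2, overlapped no peak of either list. Its window had 5 peaks of replicate 1 and 3 of replicate 2, of which 2 in each were partnered. The stronger shared region lay on the side of Igf2, 3151 bp beyond H19, from 142581297 to 142582173. Its folds were 14.3 and 20.1, its summits were 5 bp apart, and its place was 32185. H19 is read toward lower coordinates, as its hairpin Mir675 on the minus strand shows, so this region lay upstream of it. The imprinting control region of the locus, which binds CTCF, is also known to lie upstream of H19, but its borders are not in the gene table and the overlap was not measured.

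Right at the start of H19, replicate 1 had a peak of 9.92-fold that began 2 bp beyond the gene (142578148 to 142578466), and the nearest peak of replicate 2 was 2201 bp away. On the far side of H19, a shared region of 8.45-fold and 9.88-fold (142555720 to 142556528) lay inside Nctc1, a non-coding RNA gene next to the muscle enhancer of the locus. It was 19002 bp from H19, just inside the window. The nearest peaks outside, at 20166 and 20382 bp, had folds of 4.04 and 7.91. Between the windows of H19 and Igf2, 32.6 kb held 1 more shared region, with folds of 7.71 and 6.49.

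Cdkn1c encodes the cyclin-dependent kinase inhibitor p57, which acts in cell cycle exit of myoblasts. Its window held 3 peaks of replicate 1 and 5 of replicate 2. The stronger of 2 shared regions lay 1955 bp from the gene, from 143463014 to 143463977, and overlapped the non-coding RNA gene Gm33663. Its folds were 17.3 and 19.8 (ranks 36114 and 33910), and its summits were 50 bp apart. The other region, 18404 bp away on the opposite side, differed between the lists, at 13.96-fold in replicate 1 (percentile 70.4) and 4.94-fold in replicate 2 (percentile 18.7). Inside Cdkn1c, replicate 1 had a peak of 4.41-fold and replicate 2 had none.

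Kcnq1ot1 is the paternally expressed antisense RNA that silences Cdkn1c and its neighbours on the same chromosome, and it lies within Kcnq1. Its window of 123 kb held 9 peaks of replicate 1, 10 of replicate 2 and 6 shared regions. Those inside the RNA gene were a region of 26.9-fold and 10.2-fold (143253659 to 143254891) and a region of 5.88-fold and 8.34-fold (143220167 to 143220561). The best by place (30612) lay 19253 bp from it, inside Kcnq1, with folds of 18.3 and 16.7. At the promoter of Kcnq1ot1 no peak overlapped, the nearest being a 3.40-fold peak of replicate 2 at 324 bp and a 3.98-fold peak of replicate 1 at 2543 bp.

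The stretch between the windows of Kcnq1ot1 and Cdkn1c, outside the rule, held stronger regions than either window. In these 122 kb there were 7 shared regions, of which 6 overlapped Kcnq1, a potassium channel gene. The best had folds of 45.2 and 58.7 (143358285 to 143360268, place 3387). It was followed by regions of 29.3-fold and 51.9-fold (place 5989), 45.5-fold and 36.6-fold (place 6288) and 30.5-fold and 38.9-fold (place 9521).

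Dlk1, which encodes a transmembrane relative of the Notch ligands that is expressed in growing muscle, had the weakest signal. Its window held 3 peaks of replicate 1, 2 of replicate 2 and 1 shared region, 12197 bp from the gene (chromosome 12, 109475533 to 109476632). The folds were 6.45 and 5.25 and the place 83114. Inside the gene, replicate 1 had a peak of 4.41-fold and replicate 2 a peak of 16.1-fold, 142 bp apart, so they were not counted as shared.

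Meg3, Rian and Mirg are maternally expressed non-coding RNAs read in the same direction downstream of Dlk1, and they host small nucleolar RNAs and microRNAs. Meg3 had 9 and 8 peaks and 7 shared regions, all of them inside the gene or beyond its far end, where Rtl1 is annotated. The strongest had folds of 21.3 and 19.5 (109576166 to 109576703, place 25436). Inside Meg3 the regions differed between the lists: one had 4.94-fold and 19.5-fold (109569154 to 109569788) and the other 8.45-fold and 5.71-fold. No peak overlapped either promoter of Meg3. The nearest to the first were 11590 bp away in replicate 1 and 12616 bp in replicate 2.

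Upstream of Meg3, replicate 1 had a peak of 5.88-fold from 109528394 to 109529156 and the nearest peak of replicate 2 was 24505 bp away. The control region of this locus lies between Dlk1 and Meg3 and is also not in the gene table. Between the windows of Dlk1 and Meg3 there was a shared region of 19.8-fold and 14.5-fold (109490996 to 109492810).

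Rian had the least even counts, with 3 peaks of replicate 1 and 9 of replicate 2, of which 2 in each list were partnered. Its shared region inside the gene, from 109656798 to 109658088, was among the stronger member regions at 30.5-fold and 23.2-fold (place 16628). A region placed as high or higher lay within 20 kb of 40.9% of protein-coding genes. The other shared region of Rian is the one it has in common with Meg3, at 6.61-fold and 8.65-fold. The 7 unpartnered peaks of replicate 2 had folds from 4.32 to 13.3.

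Mirg was the only member whose peaks were all partnered, 9 in replicate 1 and 10 in replicate 2, forming 7 shared regions. Of these 7 regions, 2 overlapped the gene itself and 5 lay in the flanks alone, with places from 18723 to 88054. The density of Mirg, 12.8 shared regions per 100 kb of window, was higher than that of 97.3% of protein-coding genes. Its strongest region, from 109729881 to 109732206, lay 2775 bp before the gene and had folds of 15.6 and 47.3. In replicate 2 the summit of the 47.3-fold peak was 1865 bp from the summit of the best peak of replicate 1, so that the region is shared but its highest points are not. The region over Mir541, Mir409, Mir412 and Mir369, printed above, had folds of 8.08 and 10.5 (place 57603), and that over Mir376a had 7.35 and 11.1 (place 58775).

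**Figure D2:**
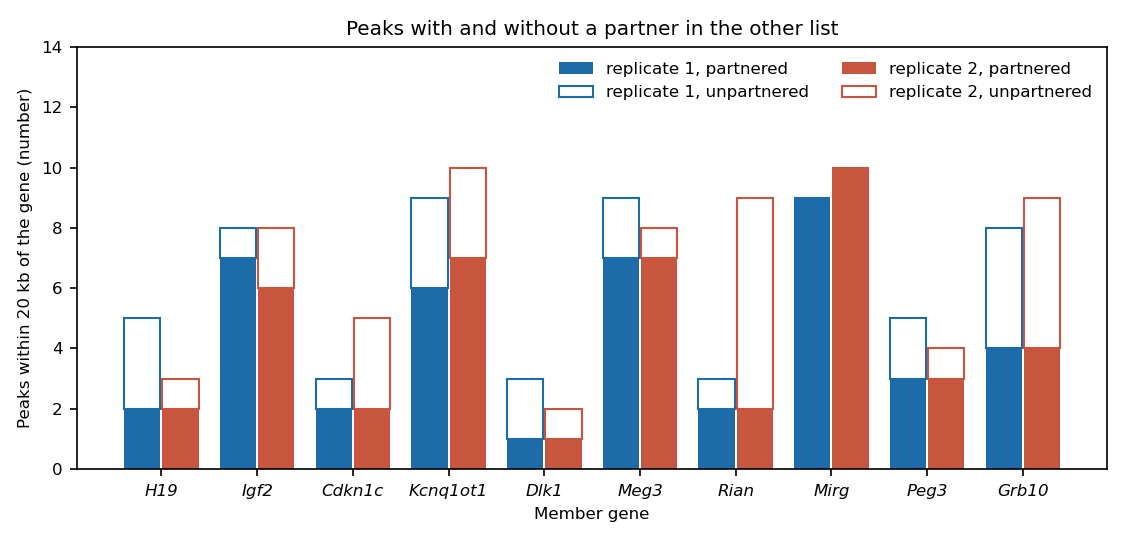
Number of peaks in each member's window (y axis) by gene (x axis), for the lists of replicate 1 (blue) and replicate 2 (red). Filled bars are peaks that overlap a peak of the other list and open bars those that do not; Mirg has no open part, and Rian has 7 open in replicate 2.

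Peg3 encodes a paternally expressed zinc-finger protein found in muscle stem cells. Its window held 5 and 4 peaks and 3 shared regions. Of these the highest in place lay 5965 bp beyond the gene (chromosome 7, 6696805 to 6697927), with folds of 23.5 and 19.5. A region of 15.4-fold and 17.9-fold (6746721 to 6747949) lay inside the neighbouring gene Usp29. Inside Peg3, over its antisense RNA gene Peg3os, the folds were 5.01 and 8.03. The peak over the printed promoter (6730016 to 6730668) had a fold of 13.9 in replicate 2, and the nearest peak of replicate 1 was 16129 bp away.

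Grb10 encodes an adaptor protein that dampens signalling by the insulin and IGF receptors. With 107 kb it was the longest member, and its window held 8 peaks of replicate 1, 9 of replicate 2 and 4 shared regions. Inside the gene, 3 shared regions had folds of 30.9 and 34.3 (chromosome 11, 12012887 to 12013855, place 10533), 39.4 and 24.7 (11960646 to 11961189, place 12570) and 19.1 and 23.8 (11955397 to 11955972, place 23851). By place, the first and second of these were the strongest of any member after that of Igf2. The second overlapped the non-coding RNA gene LOC102631979. A region placed as high as the first, or higher, lay within 20 kb of 30.6% of protein-coding genes. The peaks nearest to a promoter of Grb10 were 14612 bp away in replicate 1 and 14067 bp in replicate 2.

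By strength within the lists, the members' peaks lay around the middle of the lists. The median member peak had 8.33-fold enrichment in replicate 1, against 8.08 over assembled chromosomes, and 9.88-fold in replicate 2, against 8.11. Of the 61 peaks of replicate 1, 4 (6.56%) were in the strongest 10% of the list, and of the 67 of replicate 2, 3 (4.48%). Of the 38 shared regions, 1 (that of Igf2) was in the first 10% by place. Their median place was 51000, against 48556 over all regions.

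**Figure D3:**
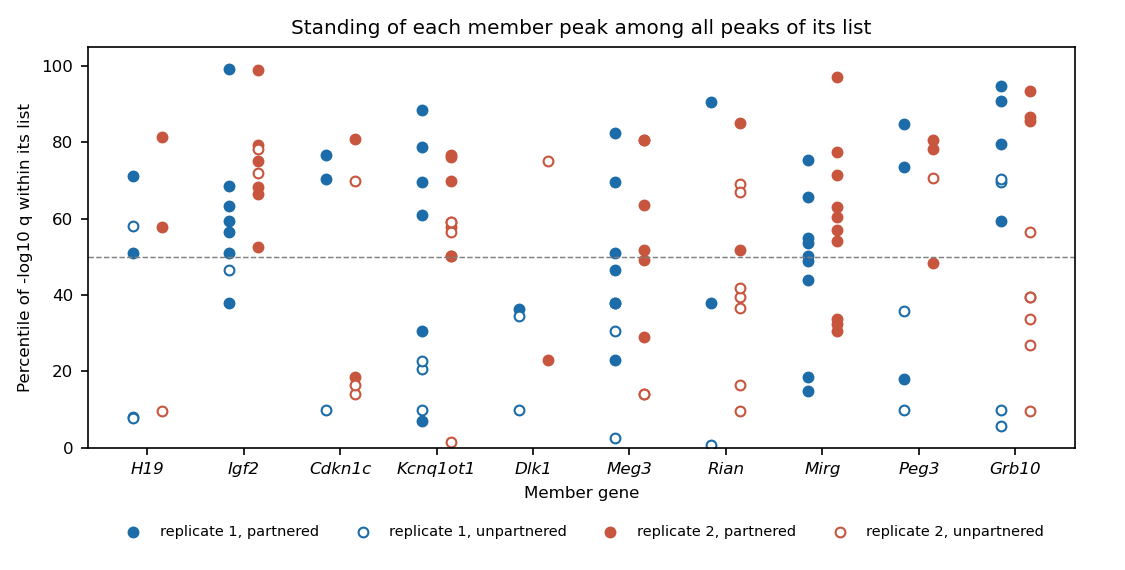
Percentile of −log10 q of each member peak among all peaks of its list (y axis; 100 is the strongest, the dashed line the middle) by member gene (x axis), replicate 1 in blue and replicate 2 in red. Filled points are partnered and open points unpartnered peaks; the pair of points at 99.3 and 99.1 belongs to Igf2.

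The share of partnered peaks was close to that of the whole lists. In replicate 1 it was 42 of 61 (68.9%, 95% exact binomial interval 55.7 to 80.1%), against 67.2%. In replicate 2 it was 43 of 67 (64.2%, interval 51.5 to 75.5%), against 57.8%. The intervals cover counting error only, and neighbouring peaks are not independent. Partnered member peaks had median folds of 10.3 and 11.4 and unpartnered ones 4.41 and 6.79, where the whole lists had 10.4 and 11.4 against 5.73 and 5.87. Of the unpartnered member peaks, 6 of 19 in replicate 1 and 5 of 24 in replicate 2 had a peak of the other replicate at most 1 kb away (31.6% and 20.8%, against 35.6% and 27.6% of all unpartnered peaks).

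The median distance between the summits of the best peaks was 113 bp in the 38 member regions, against 74 bp over all regions. The percentiles of −log10 q in both lists correlated with a Spearman rho of 0.69 over the 38 regions and 0.77 over all 97115. The points share libraries and neighbourhoods, and the difference was not tested.

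By locus, the density of shared regions in the windows was 70.9 per Mb at H19-Igf2, 60.1 at Dlk1-Meg3, 48.1 at Cdkn1c-Kcnq1ot1, 45.1 at Peg3 and 27.2 at Grb10. Chromosome 7 as a whole had 41.2, chromosome 12 had 36.5 and chromosome 11 had 42.1. The ratio to the own chromosome was thus 1.72 at H19-Igf2, 1.65 at Dlk1-Meg3, 1.17 at Cdkn1c-Kcnq1ot1, 1.10 at Peg3 and 0.647 at Grb10. A locus rests on 3 to 16 regions. Windows around genes also leave out gene deserts, so whole chromosomes are a loose yardstick.

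**Figure D4:**
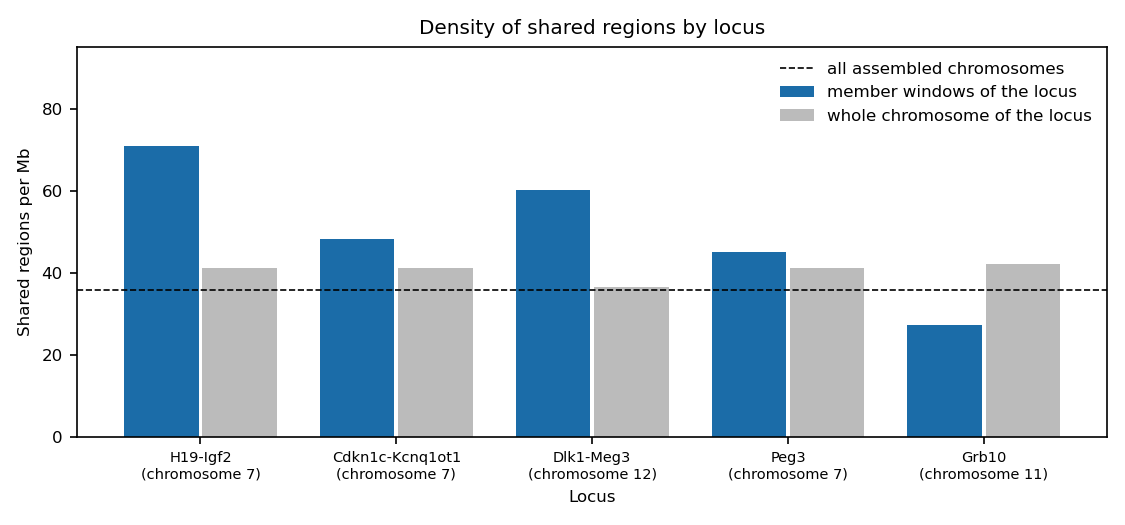
Shared regions per Mb (y axis) in the members' windows of each locus (blue) and over the chromosome that carries it (grey), with the density over all assembled chromosomes as a dashed line at 35.7. Blue exceeds grey most at H19-Igf2 (70.9 against 41.2) and lies below it at Grb10 (27.2 against 42.1).

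Set beside the windows of protein-coding genes, the members ranged from Dlk1, denser than 20.3% of them, to Mirg, denser than 97.3%. Their median was 4.69 shared regions per 100 kb, against 4.27 for protein-coding genes (quartiles 2.24 and 6.66) and 4.23 for lncRNA genes. Mirg, Meg3 (9.90) and Igf2 (8.92) lay above the upper quartile. Dlk1 (1.97) and Rian (2.05) lay below the lower quartile. The 5 non-coding members had a median of 4.86 and the 5 protein-coding members of 4.51.

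**Figure D5:**
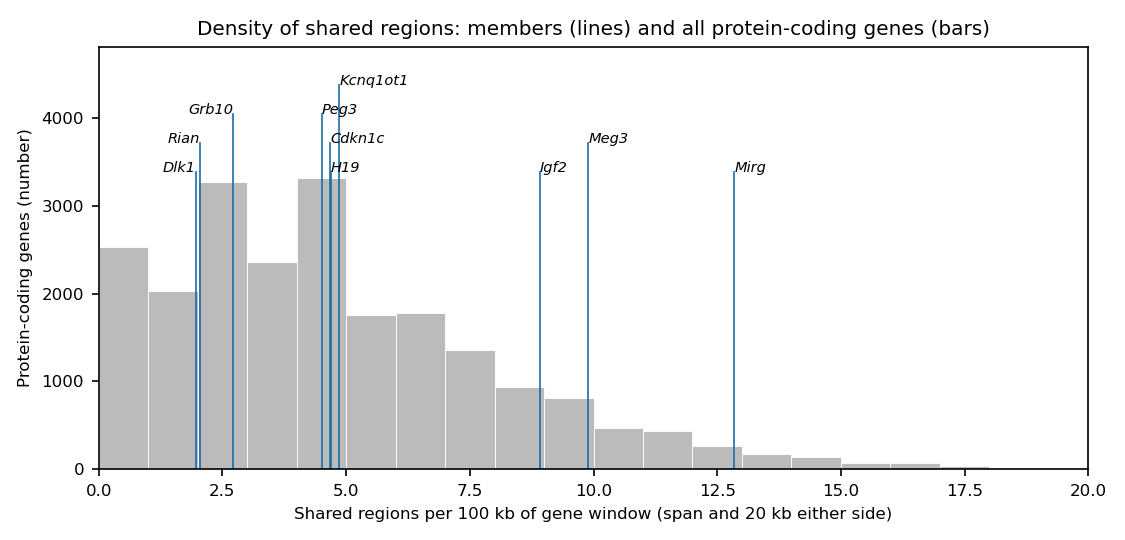
Number of protein-coding genes (y axis, grey bars) by shared regions per 100 kb of gene window (x axis, bins of 1), with the members as blue lines at their own values. Dlk1, Rian and Grb10 lie between 1.97 and 2.72, 4 members between 4.51 and 4.86, and Igf2, Meg3 and Mirg between 8.92 and 12.8; the axis ends at 20.

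Other imprinted genes were counted in the same way. Of 55 in the table, 51 had a shared peak within 20 kb (92.7%, interval 82.4 to 98.0%), against the 89.5% of all protein-coding genes, and Magel2, Nap1l5, Peg13 and Tssc4 had none. The strongest region lay at Igf2r, the receptor that clears IGF2, and its antisense RNA Airn (71.6-fold and 68.6-fold, chromosome 17, 12749722 to 12751943, place 278). Inpp5f followed with 60.3-fold and 62.7-fold (place 871). Ins2 came next through the region of Igf2 described above, which lies in both windows. Rtl1, Zim1 and Slc22a18 likewise had as their best region that of Meg3, Peg3 and Cdkn1c. The best region of Nctc1 lay in the window of H19. Genes that share a region are not independent, so the interval covers counting error only. The median density of the other imprinted genes was 3.35 shared regions per 100 kb, against 4.27 for protein-coding genes. The median percentile of their best region was 87.0, against 85.9, and neither difference was tested.

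All 36 genes of IGF and growth signalling had a shared peak within 20 kb (100%, interval 90.3 to 100%), against 89.5% of protein-coding genes. The genes of each list were picked by name with earlier results of these data known. Their intervals therefore cover counting error only and do not test an excess over all genes. For the 36 genes the median percentile of the best region was 91.4, against 85.9 for protein-coding genes and 82.1 for the members. Their windows held a median of 5 shared regions, against 3 for protein-coding genes. Per 100 kb, the medians were close, at 4.31 and 4.27. These differences were not tested. The best were at Gsk3b, the glycogen synthase kinase gene (87.2-fold and 74.4-fold), at Pik3r1, a regulatory subunit of PI3-kinase (88.9-fold and 73.5-fold), at the adaptor gene Shc1 (85.6-fold and 71.7-fold) and at Igf2r. Of 17 regulators of imprinting, 16 had a shared peak within 20 kb (94.1%, interval 71.3 to 99.9%), the exception being Ezh2. The median percentile of their best region was 81.9, below the 85.9 of protein-coding genes. Their median density was higher, at 5.11 shared regions per 100 kb against 4.27, and neither difference was tested. The places of their best regions ran from 5 to 83984, and only the 4 highest are named here. Dppa3, which protects maternal methylation in the egg, had folds of 84.3 and 83.3, Uhrf1 had 55.1 and 74.1, Dnmt3l 68.0 and 43.3, and Zfp445 44.8 and 54.4.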

How the data were processed

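ChIRP-seq of LncMyoD was analysed from 2 deposited peak lists of 6 samples. Tools listed in the submitters' processing notes are MACS2 2.1.1, Picard 2.9.2 and Bowtie2 2.3.2, beside the build mm10. Not given in the sources used here are the calling threshold, the control of each call and the way probe libraries were combined. Libraries were made by tagmentation, per the labels' protocols, an enzyme step with sequence preferences. The fold at each summit is the ratio deposited by the authors. The q of each peak was deposited as −log10 q, with a lowest value of 1.35 for replicate 1 and 1.32 for replicate 2. Summits were deposited as offsets in bp. Read depth is unknown, and no floor is given.

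Overlaps were computed with Python 3.11.15, numpy 2.4.6, pandas 2.3.3 and scipy 1.17.1, figures with matplotlib 3.10.9, and tested on simulated data: of 5000 peaks with 50% planted in both lists, 50% were found partnered. Genes, promoters and hairpins came from RefSeq tables of GRCm38.p6, the assembly behind mm10. Chromosome length was taken as the highest end of any peak or gene. Genes named beside the members were, by a fixed rule, the 4 with the best shared region in each other list and genes at the members' windows; those without a shared peak and regions between windows were named after their values were seen. The members and lists were chosen with earlier results of these data known. Alternatives were other windows, other definitions of shared, stricter peaks and single lists.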

Additional observations from a re-analysis of the deposited data

How the results depend on the processing

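No paired analysis was possible because each replicate is a single list of one condition. With no flank, the windows held 24 peaks of replicate 1, 35 of replicate 2 and 15 shared regions, and 51.4% of the peaks of replicate 2 were partnered. With 5 kb the counts were 36, 43 and 21, and with 50 kb replicate 2 had 102 peaks. At a reciprocal overlap of 50%, there were 24 shared regions (32.2 per Mb), and 39.3% and 35.8% of peaks were partnered. With summits within 200 bp, 49.2% and 44.8% were. At −log10 q of at least 5, 82.0% of the peaks of replicate 1 were partnered. Among the 10000 peaks with the highest −log10 q of each list, 2 peaks of each lay in the windows, 50% of them partnered, giving 1 shared region (1.34 per Mb), 1 member with a shared peak, Igf2, and 13 other imprinted genes; 20.5% of protein-coding genes had one at that setting. Without replicate 1 or 2, the peaks of the remaining list numbered 67 or 61 (90.01 or 81.9 per Mb). The cause of the shifts was not tested, beyond smaller windows and fewer peaks holding less. The members with a shared peak numbered 10 with 50 kb (97.7% of protein-coding genes had one), 10 at −log10 q of at least 5 (87.9%), 9 with 5 kb (Dlk1 lost; 70.0%) and 7 with no flank (55.7%, counting peaks and not regions). They numbered 10 in either list alone and 9 with reciprocal overlap and with summits within 200 bp, settings for which the share of all genes was not computed. With 50 kb there were 57 shared regions and 89 peaks of replicate 1. Depth, input and probe pools behind the lists are unknown, which limits every statement here to where peaks were called.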
